A study of Mus musculus with 11 samples.

Results

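The genes described here encode the nuclear subunits of the mitochondrial respiratory chain (complexes I to IV) and of the ATP synthase (complex V). They were chosen by name: every gene symbol that starts with Nduf, Sdh, Uqcr, Cox or Atp5 and has the form of a structural subunit was taken, and names of pseudogenes would have been dropped, of which there were 0. This gave 81 of the 28591 genes listed in either of 2 count tables, with 36 in complex I, 4 in complex II, 8 in complex III, 16 in complex IV and 17 in complex V. Atp5s, a coupling factor of the ATP synthase, and Atp5sl, now known as a complex I assembly protein, came in through their symbols.

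RNA was sequenced from the mitral leaflets of mice, the valve flaps on the inflow side of the left ventricle, in 11 libraries. In the Ift88 experiment, 3 knockout libraries came from mice with 2 floxed Ift88 alleles and an Nfatc1-driven Cre, and 2 wild-type libraries came from mice that carried this Cre too but had unaltered Ift88. In the Dzip1 experiment, 3 libraries came from mice with 1 S14R allele of Dzip1 and 1 wild-type allele (S14R/+), and 3 from mice with 2 wild-type alleles. The study asked how loss of Ift88, a protein that carries cargo along the cilium, and a mutation of Dzip1, a protein of the ciliary base, alter the leaflet transcriptome. The Nfatc1 driver acts in endocardial cells and their descendants, so cells of other origin in a knockout leaflet keep Ift88. The sources used here give neither the age of the mice nor whether each library was a separate animal, so the p-values refer to the spread of the libraries, which may be technical.

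The respiratory chain passes electrons from NADH (complex I) and succinate (complex II) through complexes III and IV to oxygen and pumps protons across the inner mitochondrial membrane, and the ATP synthase uses the proton gradient to make ATP. Heart muscle is among the tissues richest in these proteins, while valve leaflets consist mainly of interstitial fibroblasts under an endothelial layer. Complex IV has subunits in tissue variants: Cox6a2, Cox7a1 and Cox8b are the variants of heart and other striated muscle, and Cox6a1, Cox7a2 and Cox8a are their partners in most other tissues.

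Total counts per library were 23.4 to 53.8 M in the Ift88 experiment and 75.1 to 93.5 M in the Dzip1 experiment. Levels are CPM, that is counts per M of the library size after TMM scaling, and are listed in the order of the replicate numbers. As a check of the labels, Ift88 itself was at 7.50 and 19.9 CPM in wild type and 3.00, 3.91 and 0.409 CPM in knockout, so the groups did not overlap and the knockout was lower. The wild-type libraries of that experiment stood far apart. A list of 25 cardiomyocyte genes summed to 89839 CPM in wild-type replicate 1 and to 212 CPM in wild-type replicate 2, with 51260, 38055 and 51325 CPM in the knockout. In each library 24 or 25 of these 25 genes had a count. In the fit of knockout against wild type this list had a median log2 fold change of 0.39 with 17 of 25 genes positive. That median was opposite in sign to the one of the subunit genes below, and the cause was not tested. The genes of the list did not move together, with log2 fold changes from -1.47 to 7.73. Myl7 was at 554 and 10.2 CPM in wild type and 149, 5072 and 6859 CPM in knockout. Mb was at 1366 and 0 CPM in wild type and 921, 81.6 and 5.31 CPM in knockout. A list of 9 interstitial fibroblast genes summed to 2027 and 4395 CPM in the wild type and 9132, 8387 and 6286 CPM in the knockout, and 8 endothelial genes to 251 and 2326 CPM and to 1569, 2543 and 1785 CPM. In the Dzip1 experiment the fold changes in the authors' deposited table follow another grouping than the labels (Spearman correlation across genes 0.89 with wild-type replicates 1 and 3 and S14R/+ replicate 2 over the other libraries, and -0.53 with mutant over wild type as labelled). Groups here follow the labels, and values under that other grouping are given beside the result.

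The 2 tables listed some of the subunit genes very differently, so levels were compared within a table only. Ndufs5, a complex I subunit, had 0 counts in all 5 Ift88 libraries and 3944 to 5623 in the Dzip1 libraries. Sdhd, an anchor of complex II, had 22062 to 76535 counts in the first table and 5 to 22 in the second. Uqcr11, a small complex III subunit, had 9045 to 38019 against 0 to 3, and Cox7a2 had 6935 to 36406 against 118 to 165. The cause of these gaps was not tested, and a gene whose reads are shared with a near-identical copy cannot be quantified firmly from such tables. Cox8c, a testis variant, had no count in either table. Cox7b2, another testis variant, had 71 counts in wild-type replicate 2 and 0 in the other Ift88 libraries, and 0 to 11 counts in the Dzip1 libraries. After removal of genes with low counts, 78 of the 81 genes were tested in each experiment: Ndufs5, Cox7b2 and Cox8c were left out in the first and Uqcr11, Cox7b2 and Cox8c in the second. None of the 13 subunits encoded by mitochondrial DNA was among the rows used here.

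In the Ift88 experiment the 81 genes together made up 9.51% and 2.17% of all counts in wild type and 5.16, 3.18 and 3.70% in knockout. The knockout values all lay between the wild-type values. Complex I summed to 31694 and 6674 CPM in the wild type and 13516, 8596 and 9679 CPM in the knockout. Complex II summed to 8126 and 1369 CPM and 3757, 1682 and 2356 CPM. Complexes III and IV kept the same order, with wild-type replicate 1 highest, wild-type replicate 2 lowest and knockout replicate 1 above the other knockout libraries. Complex III summed to 13686 and 2688 CPM and 6185, 3487 and 4065 CPM, and complex IV to 14056 and 2486 CPM and 6802, 3979 and 3318 CPM. Complex V, with the most abundant transcripts, summed to 45582 and 7119 CPM and 20764, 12379 and 15886 CPM. In bulk tissue, fewer cells of a type and less RNA per cell cannot be told apart.

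**Figure D1:**
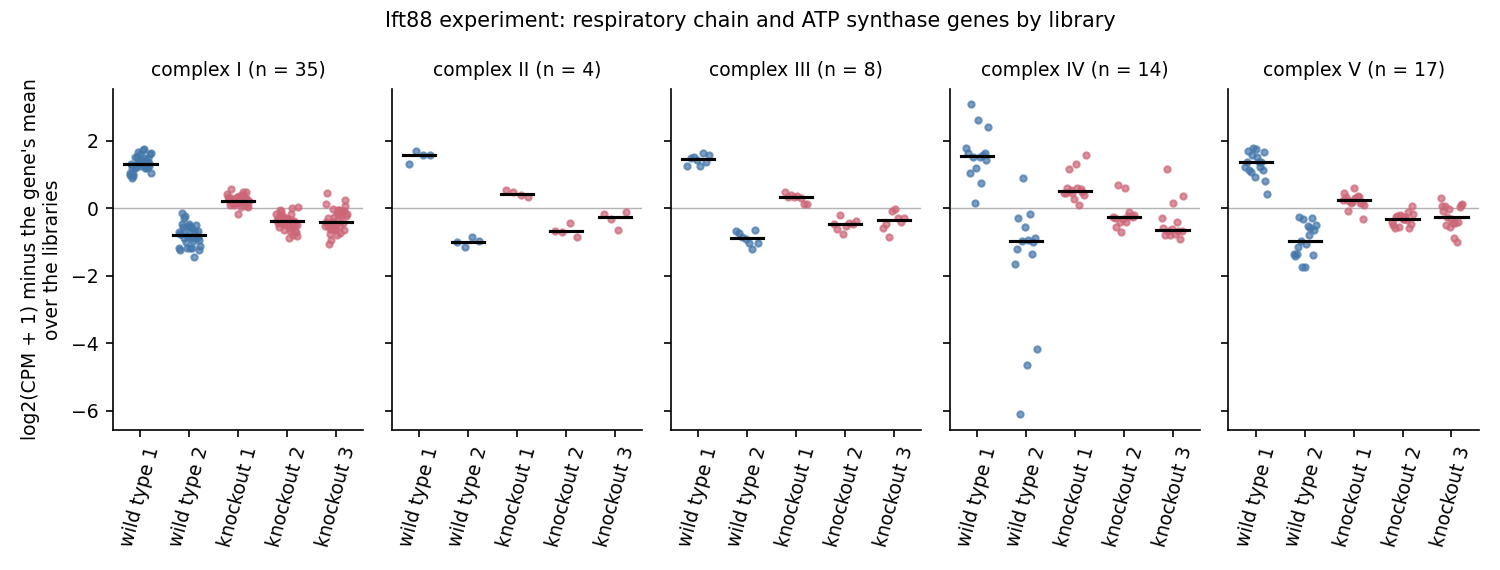
Each point is 1 of the 78 tested genes in 1 library of the Ift88 experiment, as log2(CPM + 1) minus that gene's mean over the 5 libraries, with 1 panel per complex and a bar at the median. Wild-type replicate 1 is highest in all 5 panels and wild-type replicate 2 lowest, with the knockout libraries between them; the 3 low points of complex IV in wild-type replicate 2 are Cox8b, Cox6a2 and Cox7a1.

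Gene by gene the order was nearly uniform. Wild-type replicate 1 was the highest library for 77 of 78 tested genes and wild-type replicate 2 the lowest for 57. The exception at the top was Cox6b2, a testis variant of complex IV, at 3.45 and 6.42 CPM in wild type and 4.42, 1.44 and 1.31 CPM in knockout. In 57 genes all 3 knockout libraries lay between a high wild-type replicate 1 and a low wild-type replicate 2, a pattern that 9.37% of the 14244 tested genes had (19.8% had the knockout within the wild-type range whichever wild-type library was higher). No subunit gene had all knockout libraries above the wild type, against 13.4% of all tested genes, and none had all of them below, against 11.1%. The CPM in wild-type replicate 1 over that in wild-type replicate 2 had a median of 4.38 in complex I, 5.64 in complex II, 5.01 in complex III, 5.87 in complex IV and 4.87 in complex V. The median log2 ratio was 2.28 over the tested subunit genes, -0.011 over all tested genes and 8.58 over the cardiomyocyte list.

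As fitted, the knockout was lower than the wild type on average, but no gene passed the test. The median log2 fold change (knockout over wild type) of the 78 genes was -0.83, all 78 were negative, and the median over all tested genes was -0.013. By edgeR's quasi-likelihood test with Benjamini-Hochberg adjustment, 0 of the 78 genes had an adjusted p under 0.05, as had 0% of all tested genes, and 0 had an unadjusted p under 0.05, where 4.75% of all tested genes were higher and 1.26% lower. DESeq2 called 218 genes (1.53%), and 184 (1.43%) had an adjusted p under 0.05 in the authors' deposited table, none of them a subunit gene in either case. The medians were -0.83, -0.96, -0.92, -0.83 and -0.83 for complexes I to V. The biological coefficient of variation, the fitted spread between libraries of a group, was 87.7%.

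This negative direction rested on wild-type replicate 1. Without it, the median was 0.71, with 73 of 79 tested genes positive, while the median over all genes was 0.15. Without wild-type replicate 2 the median was -1.53. Among the 3 libraries whose titles share a prefix (wild-type replicate 1 and knockout replicates 1 and 2) it was -1.39, all 78 genes were negative and the smallest adjusted p was 0.145; the other prefixes are carried by 1 library each. Limma-voom, which averages log values, gave a median of -0.42 with 65 negative genes. The part of the cardiomyocyte genes in these values was not tested. With the mean of that list as a covariate in the fit, the median was -1.30 and 0 genes passed. The list was far lower in wild-type replicate 2 than in every other library. This fit therefore cannot separate the list from that library.

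In complex I, Ndufb4, a subunit of the membrane arm, had the lowest log2 fold change of all the genes. It was at 773 and 185 CPM in wild type and 225, 180.0 and 182 CPM in knockout. Only wild-type replicate 1 stood out, and the log2 fold change was -1.29 ± 0.60 (unadjusted p = 0.0744, adjusted p = 0.802 by edgeR). Ndufa7, a matrix-arm subunit, was at 519.9 and 190.4 CPM in wild type and 241, 163 and 146 CPM in knockout, with -0.95 ± 0.51 (unadjusted p = 0.111, adjusted p = 0.82 by edgeR). Ndufb8, the complex I gene with the highest CPM, was at 3914 and 648 CPM in wild type and 1295, 749.9 and 983 CPM in knockout, and its log2 fold change was -1.18 ± 0.75. In all 3 genes the knockout libraries lay nearer to wild-type replicate 2 than to wild-type replicate 1. The catalytic core subunits Ndufs1 and Ndufv1, which carry electrons from NADH, were also highest in wild-type replicate 1 and, unlike Ndufb4 and Ndufa7, lowest in wild-type replicate 2. Ndufs1 was at 712 and 113 CPM in wild type and 431, 309.5 and 263 CPM in knockout and Ndufv1 at 1597 and 219.6 CPM in wild type and 609, 297 and 614 CPM in knockout.

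In complex II the membrane anchors Sdhc and Sdhd had the smallest p-values. Sdhc was at 797 and 147 CPM in wild type and 349, 197 and 170.2 CPM in knockout, and Sdhd at 2900.5 and 494 CPM in wild type and 1222, 532 and 902 CPM in knockout. The knockout lay within the wild-type range in all 4 genes of the complex, the iron-sulphur subunit Sdhb and the flavoprotein Sdha included. In complex III the hinge protein Uqcrh was at 1608 and 395 CPM in wild type and 673, 449.6 and 467 CPM in knockout. Uqcr11 was at 1441 and 311 CPM in wild type and 646, 334 and 369.7 CPM in knockout. Uqcrc1, a core protein and the complex III gene with the highest CPM, was at 3657 and 709 CPM in wild type and 1700.2, 794 and 1269 CPM in knockout. These 3 genes had log2 fold changes of -0.92 ± 0.63, -0.96 ± 0.69 and -0.80 ± 0.74, with the knockout of each between the wild-type libraries.

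In complex IV, Cox7a2l, which links complexes III and IV into supercomplexes, differed little between the wild-type libraries. It was at 304 and 161 CPM in wild type and 196, 155 and 136 CPM in knockout, with a ratio of 1.89 between the wild-type libraries. Cox6c was at 1361 and 402 CPM in wild type and 721, 480.0 and 389 CPM in knockout. Cox6b1, the complex IV gene with the highest CPM, was at 1827 and 331 CPM in wild type and 945, 483 and 399 CPM in knockout, with knockout replicate 1 well above the other knockout libraries. Cox5a, a matrix-side subunit, was at 1835 and 169 CPM in wild type and 727, 451 and 439 CPM in knockout, a ratio of 10.9 between the wild-type libraries.

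In complex V, Atp5b, the catalytic beta subunit, had the highest CPM of all the genes at 11078 and 1612 CPM in wild type and 5861, 3073 and 4538 CPM in knockout. Its log2 fold change was -0.50 ± 0.82. Atp5e, the epsilon subunit of the central stalk, was at 609 and 237 CPM in wild type and 272, 242 and 202 CPM in knockout, and Atp5l, a membrane subunit, at 856 and 322 CPM in wild type and 439, 260.2 and 296 CPM in knockout. For these small subunits the wild-type ratio was 2.56 and 2.65, and wild-type replicate 2 overlapped the knockout. The 3 genes of the proton-carrying c ring, whose mature proteins are the same, differed in that ratio: Atp5g1 had 11.4, Atp5g3 had 11.3 and Atp5g2 had 2.38. Atp5g2 was at 424 and 178 CPM in wild type and 250.4, 191 and 151 CPM in knockout, and Atp5g1 at 2852 and 249 CPM in wild type and 928, 722 and 818 CPM in knockout. The gene nearest to 0 in the whole set was the assembly protein Atp5sl, with a log2 fold change of -0.0061 ± 0.47 and 34.6 and 18.1 CPM in wild type and 27.6, 22.8 and 28.2 CPM in knockout.

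Per kilobase of transcript, the most abundant complex V gene in the Ift88 table was Atp5g3, with a mean of 2922 CPM per kb over the 5 libraries, followed by Atp5b with 2731 and Atp5o, of the stalk, with 2228. The leading genes of the other complexes on that scale were Ndufa4 with 1643, Sdhd with 983, Uqcrh with 1514 and Cox6b1 with 1640.0 CPM per kb. Ndufa4 was named for complex I and has since been assigned to complex IV. The libraries differ widely, and for each of these genes the lowest and the highest library lay further apart than the means of neighbouring genes.

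The heart variants of complex IV separated the wild-type libraries most. Cox6a2 (chr7:128205435-128206387 of GRCm38) was at 1104 and 0.907 CPM in wild type and 295, 212 and 295 CPM in knockout. Cox7a1 (chr7:30184144-30186078) was at 306 and 0.994 CPM in wild type and 123, 74.8 and 54.9 CPM in knockout, and Cox8b (chr7:140898945-140900446) at 93.7 and 0 CPM in wild type and 52.6, 14.7 and 22.2 CPM in knockout. Wild-type replicate 2 thus had almost none of these transcripts, while the knockout libraries all had them at an intermediate level. Cox6a2 was 1217 times and Cox7a1 308 times as high in wild-type replicate 1 as in wild-type replicate 2. For Cox8b, 2473 counts stood against 0, at least 1791-fold higher when a floor of 3 counts in that library is used. This floor covers counting error only.

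The partners differed less. Cox6a1 (chr5:115345642-115348981) was at 1017 and 404 CPM in wild type and 736, 331 and 282 CPM in knockout. Cox7a2 (chr9:79755361-79759878) was at 1379.7 and 249 CPM in wild type and 732, 364 and 283 CPM in knockout, and Cox8a (chr19:7215153-7217616) at 1342 and 270.0 CPM in wild type and 655, 422 and 316 CPM in knockout. All 3 partners were well expressed in wild-type replicate 2. Per kilobase, Cox6a2 made up 47.7 and 0.188% of the Cox6a pair in wild type and 25.2, 35.0 and 46.7% in knockout. Cox7a1 made up 24.96 and 0.596% of its pair and 20.1, 23.6 and 22.5%, and Cox8b 9.64 and 0% and 10.9, 5.05 and 9.71%. In each pair, all knockout libraries were far closer to wild-type replicate 1 than to wild-type replicate 2, apart from knockout replicate 1 for Cox6a2 and knockout replicate 2 for Cox8b, which lay about midway.

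**Figure D2:**
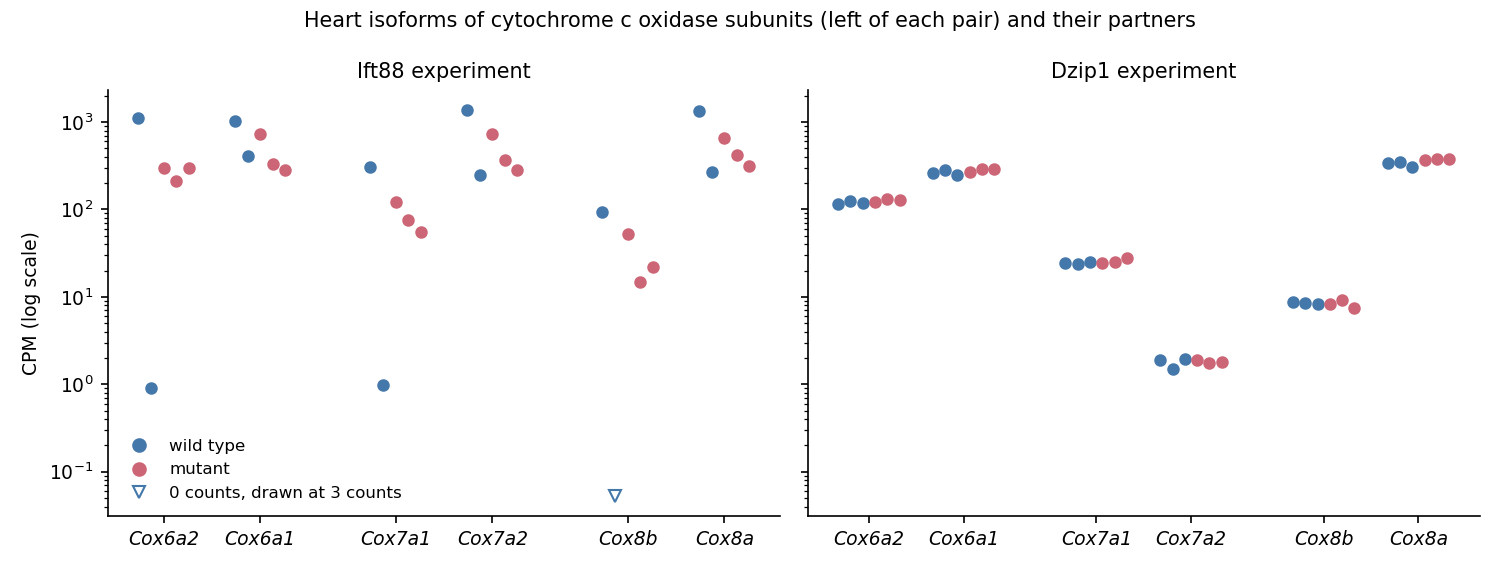
Levels in CPM on a log scale of the heart variants Cox6a2, Cox7a1 and Cox8b and of their partners Cox6a1, Cox7a2 and Cox8a, with 1 point per library in replicate order, wild type in blue and mutant in red. In the Ift88 experiment the heart variants of wild-type replicate 2 lie at 0.907, 0.994 and 0 CPM (open triangle), far below the other libraries; in the Dzip1 experiment the groups overlap for all but Cox8a, and Cox7a2 is near 2 CPM.

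The fitted log2 fold changes of the heart variants, -1.05 ± 1.79, -0.87 ± 1.59 and -0.65 ± 2.05, were smaller than their standard errors, and those of the partners were -0.66 ± 0.61, -0.83 ± 0.78 and -0.80 ± 0.71. Set against wild-type replicate 2 alone, which assumes that this single library varies like the knockout libraries, the 3 heart variants were the only subunit genes past the threshold. Cox6a2 was higher in the knockout by 8.18 ± 0.62 on the log2 scale (edgeR adjusted p = 0.00464), Cox7a1 by 6.38 ± 0.83 (edgeR adjusted p = 0.0229) and Cox8b, with a wild-type count of 0 that makes its fold dependent on the prior count, had an edgeR adjusted p of 0.0319. Of all 15340 genes tested that way, 1.16% were called higher and 0.0587% lower. With both wild-type libraries no such call was made.

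The sequences before the start of the heart variants and partners are shown, for the 5 of them in the RefSeq table, because these pairs carry the largest contrast between libraries. They are the 250 bases upstream of the RefSeq start in GRCm38.p6, 5′ to 3′ on the gene's strand: Cox7a1 at chr7:30183921-30184170, plus strand, Cox7a2 at chr9:79759854-79760103, minus strand, Cox8b at chr7:140900447-140900696, minus strand, Cox8a at chr19:7217617-7217866, minus strand, and Cox6a1 at chr5:115348959-115349208, minus strand. Capitals mark matches to the motifs named in the next paragraph.
Cox7a1: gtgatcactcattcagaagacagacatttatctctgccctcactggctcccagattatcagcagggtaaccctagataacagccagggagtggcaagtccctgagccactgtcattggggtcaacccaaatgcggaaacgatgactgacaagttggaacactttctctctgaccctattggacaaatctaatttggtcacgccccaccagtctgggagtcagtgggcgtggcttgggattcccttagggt
Cox7a2: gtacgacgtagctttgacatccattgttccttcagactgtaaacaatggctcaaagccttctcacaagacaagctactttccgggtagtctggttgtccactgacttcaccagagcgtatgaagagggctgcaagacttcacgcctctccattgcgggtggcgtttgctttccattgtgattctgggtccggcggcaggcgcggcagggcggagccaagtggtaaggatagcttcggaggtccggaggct
Cox8b: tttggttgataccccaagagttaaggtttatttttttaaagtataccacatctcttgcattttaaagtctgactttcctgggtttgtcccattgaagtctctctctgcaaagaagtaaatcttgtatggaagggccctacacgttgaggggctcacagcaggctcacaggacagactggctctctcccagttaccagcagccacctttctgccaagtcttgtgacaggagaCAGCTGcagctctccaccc
Cox8a: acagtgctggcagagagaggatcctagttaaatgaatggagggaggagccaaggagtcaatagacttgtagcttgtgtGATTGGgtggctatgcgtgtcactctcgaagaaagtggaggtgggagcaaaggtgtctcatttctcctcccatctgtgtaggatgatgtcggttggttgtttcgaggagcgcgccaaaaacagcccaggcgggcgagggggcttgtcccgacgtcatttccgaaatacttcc
Cox6a1: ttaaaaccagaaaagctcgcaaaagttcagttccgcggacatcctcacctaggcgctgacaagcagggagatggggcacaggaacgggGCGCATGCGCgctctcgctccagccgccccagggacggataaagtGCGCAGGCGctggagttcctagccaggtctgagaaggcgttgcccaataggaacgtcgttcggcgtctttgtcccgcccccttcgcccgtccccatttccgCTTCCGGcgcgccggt

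Of the 81 genes, 69 had a promoter in the RefSeq table; Cox6a2 was not among them. A set of 10 short motifs was searched on both strands of these 250 bases, where overlapping matches count. The NRF1 motif GCGCANGCG, named for a regulator of respiratory genes, was in 13 of 69 (18.8%) against 5.33% of 27025 promoters. The ETS motif CCGGAAG, bound by GABP among others, was in 11 (15.9%) against 7.05%. The estrogen-related receptor motif AAGGTCA was in 5 (7.25%) against 4.05%. The MEF2 motifs TAAAAATA and TATTTATA, named for a factor of muscle genes, were in 0 of 69, with 2.48% and 1.63% of all promoters. The E-box CAGCTG was in 6 (8.70%) against 12.8%, the TEAD motif CATTCC in 7 (10.1%) against 12.6%, CCAATC in 12 (17.4%) against 15.1% and TATAAA in 6 (8.70%) against 13.0%. The YY1 motif AAGATGGCG was in 0 of 69 upstream, but in 7 when the 50 bases after the start were included, where 1.49% of all promoters held it. In that longer window NRF1 was in 19 of 69 against 6.47%, ETS in 15 against 9.12% and the estrogen-related receptor motif in 8 against 4.66%. The E-box was in 6 against 16.1%, TEAD in 7 against 14.6%, CCAATC in 14 against 16.6% and TATAAA in 7 against 14.2%. Both MEF2 motifs were still in 0. Cox6a1 held overlapping NRF1 matches and an ETS match, Cox8b an E-box and Cox8a a CCAATC, while Cox7a1 and Cox7a2 held none of the 10. These are matches of letters, and binding was not measured.

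The fold changes of the Ift88 experiment also followed transcript length. With all tested genes split by length into 5 equal groups, the median log2 fold change was -0.48 for the shortest, then -0.22, -0.060 and 0.19, and 0.74 for the longest. The subunit genes are short: 62 of 78 were in the shortest group, 11 in the next and 5 in the middle one, with medians of -0.85, -0.66 and -0.59. In each of these groups their median lay below that of all genes. With the length trend of every library removed, the median was -0.31 and 71 of 78 genes were negative.

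In the Dzip1 experiment the libraries were alike, with a biological coefficient of variation of 7.85%, and the differences were small. The 81 genes made up 1.75, 1.87 and 1.74% of counts in the wild type and 1.85, 1.89 and 1.89% in S14R/+. Wild-type replicate 2 lay among the S14R/+ libraries. The median log2 fold change (S14R/+ over wild type) was 0.059, and 57 of the 78 tested genes were positive, where 49.9% of all tested genes were. By edgeR, 0 of the 78 genes passed the adjusted p threshold, as did 0% of the 16160 genes tested, and DESeq2 called 0 as well. At an unadjusted p under 0.05, 13 subunit genes were higher, where 2.41% of all tested genes were, and 2 were lower, where 3.53% were. All S14R/+ libraries lay above all wild-type libraries in 12 of the genes, against 5.85% of all tested genes, and below them in 1, against 4.59%. In the authors' deposited table no subunit gene had an adjusted p under 0.05, against 14 of all genes, or 0.0885%. The grouping that this table follows was fitted as S14R/+ replicates 1 and 3 and wild-type replicate 2 over the other libraries. This is the reverse of the direction given with the correlation above. In that fit the median was 0.034 with 50 genes positive and 0 called.

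Several marker lists of other cell types also differed between the libraries of this experiment. The cardiomyocyte list summed to 53856, 55197 and 48574 CPM in the wild type and 56921, 56814 and 57563 CPM in S14R/+, with all S14R/+ libraries above all wild-type libraries, and 23 of its 25 genes were positive with a median of 0.094. The fibroblast list summed to 6405, 7243 and 8093 CPM and 6249.9, 6596 and 6118 CPM, with 7 of 9 genes negative and a median of -0.18. All 4 tested erythroid genes were negative with a median of -0.88 and an unadjusted p under 0.05, and summed to 428, 225 and 328 CPM in the wild type and 118, 237 and 156 CPM in S14R/+, with overlap. Of 6 leukocyte genes 5 were negative with a median of -0.25. The endothelial list differed little, with 5 of 8 genes positive and a median of 0.013. It summed to 1376, 1500.5 and 1439 CPM in the wild type and 1447, 1466 and 1488 CPM in S14R/+, with overlap. The part of the fibroblast, erythroid, leukocyte and endothelial genes in the subunit values was not tested. With the mean of the cardiomyocyte list in the fit, the median of the subunit genes was -0.016 and 47 of 78 were negative. Because the sum of that list also separated the groups, this fit cannot fully tell the list from genotype. Without wild-type replicate 2 the median was 0.099, and 0 subunit genes were called (smallest edgeR adjusted p 0.0513), where 10 of all tested genes were, or 0.0609%.

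**Figure D3:**
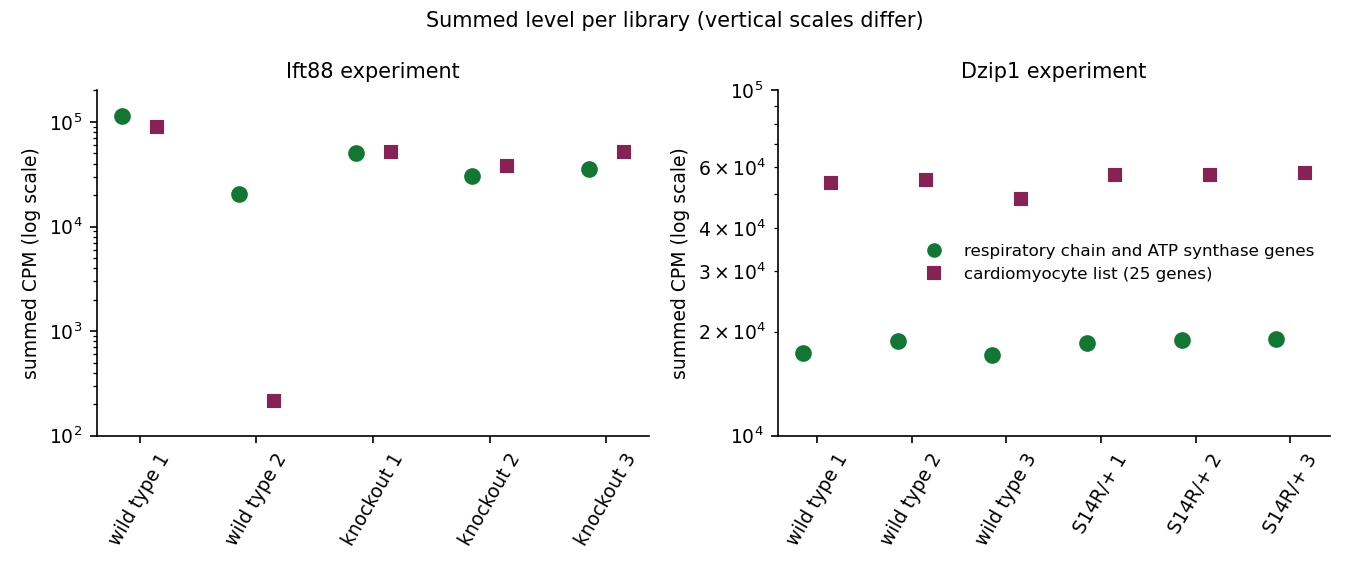
Summed CPM per library, on log scales that differ between the panels, of the 81 respiratory chain and ATP synthase genes (circles) and of the 25 cardiomyocyte genes (squares). In the Ift88 experiment both are highest in wild-type replicate 1 and lowest in wild-type replicate 2, where the cardiomyocyte list falls to 212 CPM; in the Dzip1 experiment both span a narrow range.

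The complexes differed little in S14R/+. The medians were 0.048 for complex I with 28 of 36 genes positive and 0.12 for complex II with 4 of 4. Among these 4 was Sdhd, with only 5 to 22 counts per library and a log2 fold change of 0.12 ± 0.50. The medians were 0.073 for complex III with 5 of 7, 0.04 for complex IV with 8 of 14 and 0.075 for complex V with 12 of 17. In complex I, the iron-sulphur subunit Ndufs8 was at 64.7, 69.8 and 64.8 CPM in wild type and 69.7, 73.6 and 74.8 CPM in S14R/+, and the groups overlapped. Its log2 fold change was 0.13 ± 0.044 (unadjusted p = 0.0161, adjusted p = 0.822 by edgeR). Ndufa10, an accessory subunit, was at 188, 196 and 178 CPM in wild type and 207, 196 and 206 CPM in S14R/+, with 0.11 ± 0.042 (unadjusted p = 0.022, adjusted p = 0.822 by edgeR) and no overlap, although wild-type replicate 2 and S14R/+ replicate 2 were nearly equal. Ndufb4 had the lowest log2 fold change here, -0.15 ± 0.058 (unadjusted p = 0.0248, adjusted p = 0.822 by edgeR). It was at 15.4, 14.8 and 16.0 CPM in wild type and 13.6, 14.2 and 13.9 CPM in S14R/+, with all S14R/+ libraries below the wild type. Ndufb4 was also lowest in the Ift88 experiment, but that value rested on wild-type replicate 1 (0.065 without it). The gene was counted very differently as well, with 4459 to 20399 counts in the Ift88 libraries and 1159 to 1291 in the Dzip1 libraries.

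In complex II, Sdhb was at 267, 296 and 264 CPM in wild type and 289.8, 307 and 309.7 CPM in S14R/+, Sdhc at 192, 223 and 193 CPM in wild type and 220.0, 226 and 223 CPM in S14R/+, and Sdha at 634, 692 and 605 CPM in wild type and 684, 688 and 701 CPM in S14R/+. In all 3 genes wild-type replicate 2 reached the S14R/+ level while wild-type replicates 1 and 3 lay below it. Their log2 fold changes were 0.13 ± 0.050, 0.14 ± 0.055 and 0.10 ± 0.053. In complex III, the Rieske protein Uqcrfs1 was at 210.2, 225 and 196 CPM in wild type and 232, 226 and 237 CPM in S14R/+, with 0.13 ± 0.049 (unadjusted p = 0.0218, adjusted p = 0.822 by edgeR). The core proteins Uqcrc1 and Uqcrc2 had 0.13 ± 0.050 and 0.13 ± 0.056. Uqcrc1 was at 448, 489.8 and 432 CPM in wild type and 496, 493 and 509.5 CPM in S14R/+, so its groups did not overlap, and Uqcrc2 at 442, 507 and 449.7 CPM in wild type and 495, 511 and 529 CPM in S14R/+, so its groups did.

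In complex IV, Cox8a had the smallest p-value, at 343, 348 and 309 CPM in wild type and 367, 376 and 375 CPM in S14R/+, and a log2 fold change of 0.16 ± 0.048 (unadjusted p = 0.00815, adjusted p = 0.822 by edgeR). Cox5a was at 225, 221 and 191 CPM in wild type and 238, 230.4 and 234 CPM in S14R/+, with 0.14 ± 0.057. Both had all S14R/+ libraries above all wild-type libraries. The heart variants showed no such separation. Cox6a2 was at 116, 125 and 118 CPM in wild type and 123, 132 and 128 CPM in S14R/+, Cox7a1 at 24.3, 24.0 and 24.9 CPM in wild type and 24.2, 25.3 and 27.8 CPM in S14R/+, and Cox8b at 8.63, 8.61 and 8.36 CPM in wild type and 8.19, 9.13 and 7.45 CPM in S14R/+. Their log2 fold changes were 0.091 ± 0.041, 0.074 ± 0.061 and -0.051 ± 0.087, and the partner Cox6a1 had 0.10 ± 0.055. Per kilobase, Cox6a2 made up 26.9, 26.9 and 28.7% of its pair in the wild type and 27.6, 27.7 and 27.0% in S14R/+. Cox8b made up 3.70, 3.64 and 3.97% and 3.29, 3.58 and 2.94%. No share of Cox7a1 is given because Cox7a2, at 1.90, 1.503 and 1.95 CPM in wild type and 1.89, 1.77 and 1.78 CPM in S14R/+, was barely counted in this table.

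In complex V, Atp5d, the delta subunit of the central stalk (chr10:80138632-80145818), had the highest log2 fold change of all the genes with a mean count of at least 50. It was at 110.1, 102 and 88.8 CPM in wild type and 123, 117 and 115 CPM in S14R/+, with 0.23 ± 0.068 (unadjusted p = 0.00695, adjusted p = 0.822 by edgeR) and no overlap. Atp5h, of the peripheral stalk, was at 251, 254 and 239.7 CPM in wild type and 256, 267 and 268 CPM in S14R/+, with 0.085 ± 0.038. Atp5b was at 3274, 3801 and 3314 CPM in wild type and 3657, 3728 and 3784 CPM in S14R/+, and wild-type replicate 2 was the highest library for it. Per kilobase, Atp5b led the table with a mean of 1875 CPM per kb, ahead of Atp5a1, the alpha subunit, with 973 and Atp5g3 with 953. Over the 78 tested genes, S14R/+ replicates 2 and 3 were the highest library for 26 and 27 genes and wild-type replicates 1 and 3 the lowest for 22 and 27. By this count alone S14R/+ replicate 1 differed from the other S14R/+ libraries, highest for 6 genes and lowest for 14. Wild-type replicate 2 was highest for 5 and lowest for 12.

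**Figure D4:**
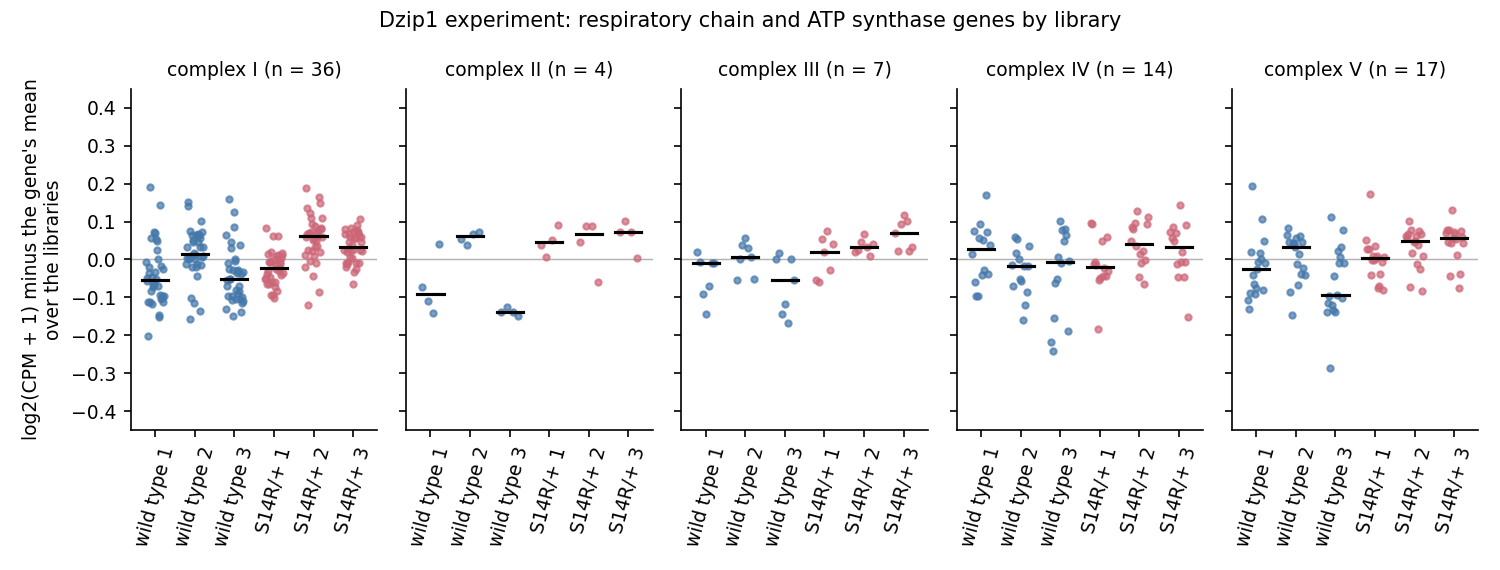
Each point is 1 of the 78 tested genes in 1 library of the Dzip1 experiment, as log2(CPM + 1) minus that gene's mean over the 6 libraries, with 1 panel per complex and a bar at the median. In complexes II, III and V the medians of wild-type replicates 1 and 3 lie below those of S14R/+ and wild-type replicate 2 lies close to S14R/+.

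The differences in S14R/+ were ordered by transcript length within the gene set. In the 26 genes with the shortest transcripts (321.5 to 595 bases) the median log2 fold change was 0.0062 and 13 were positive. It was 0.059 with 21 of 26 positive in the middle group (599 to 1001 bases) and 0.10 with 23 of 26 positive in the longest (1046 to 2900 bases). Across the 78 genes the Spearman correlation of fold change with length was 0.49, and across all tested genes it was -0.056. Genes of a library share its depth and preparation, so this is a description.

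**Figure D5:**
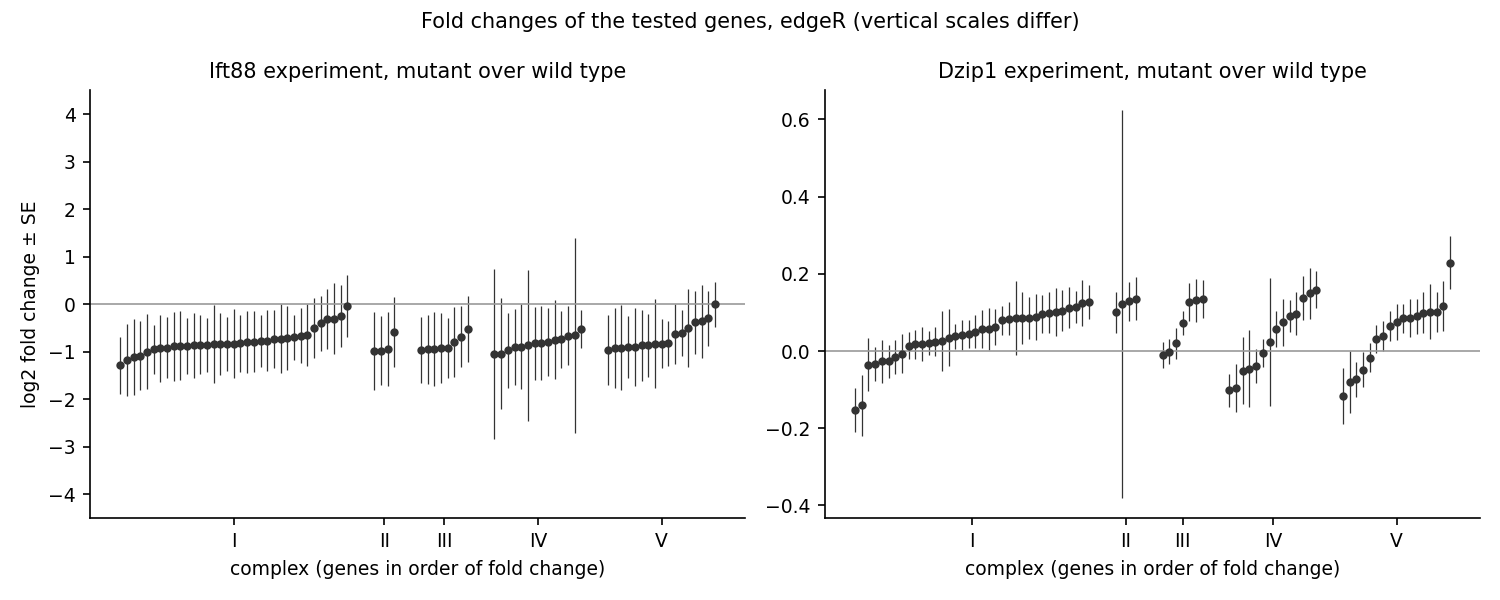
Log2 fold change, with a standard error derived from the edgeR test, of every tested gene, mutant over wild type. Genes are ordered by size within each complex, with different vertical scales in the panels. In the Ift88 experiment all 78 points lie below 0, from -1.29 to -0.0061, with standard errors of 0.40 to 2.05 that exceed the size of the fold change for 20 of them; in the Dzip1 experiment they run from -0.15 to 0.23.

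Genes that work with the respiratory chain were also mostly negative in the Ift88 experiment, while the order of the libraries varied between the lists. The knockout lay between a high wild-type replicate 1 and a low wild-type replicate 2 in 9.37% of all tested genes. It did so in 6 of 9 other nuclear subunits, 9 of 42 assembly factors and 5 of 15 regulators. The same held for 12 of 13 genes of the tricarboxylic acid cycle, 11 of 16 of fatty acid oxidation and 6 of 8 carriers and creatine kinases. These shares were not tested against each other. Of 9 nuclear subunits and electron carriers outside the naming rule, 8 were negative with a median of -0.76. Cox4i1, the ubiquitous subunit 4 of complex IV, was at 3659 and 831 CPM in the wild type and 1529, 921 and 1203 CPM in the knockout. Ndufab1, the acyl carrier protein of complex I, was at 1168 and 139 and 425, 238 and 223 CPM. Of 42 tested assembly factors 38 were negative with a median of -0.67. In 8 of them the knockout was below both wild-type libraries throughout, against 11.1% of all tested genes. Cox14, which helps build complex IV, was one of these 8, at 206 and 142 and 116, 86.7 and 79.9 CPM (-0.89 ± 0.36, unadjusted p = 0.0458, adjusted p = 0.802 by edgeR). Ndufaf6, a complex I assembly factor, was at 128 and 26.7 and 30.7, 22.3 and 33.1 CPM.

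Of 15 regulators of mitochondrial biogenesis 10 were negative with a median of -0.19. Tfam, which packages and transcribes mitochondrial DNA, was at 86.1 and 64.6 CPM in the wild type and 58.4, 50.4 and 30.0 CPM in the knockout. Gabpb1, a subunit of GABP, was at 79.1 and 88.3 and 51.7, 63.5 and 70.6 CPM, again without overlap. In the tricarboxylic acid cycle 11 of 13 genes were negative with a median of -0.39, and in 12 the knockout lay within the wild-type range with wild-type replicate 1 the higher. Idh3b, a subunit of isocitrate dehydrogenase, was at 559 and 105 and 308, 125 and 158 CPM, and Suclg2, of succinyl-CoA ligase, at 171 and 95.4 and 132, 69.5 and 80.8 CPM. In fatty acid oxidation 13 of 16 genes were negative with a median of -0.26, and Cpt1a, which starts the import of fatty acids in most tissues other than muscle, was positive. It was at 40.6 and 91.6 CPM in the wild type and 189.7, 116 and 239 CPM in the knockout, with 1.46 ± 0.52 (unadjusted p = 0.0303, adjusted p = 0.802 by edgeR). Hadha, of the trifunctional protein, was at 152 and 70.4 and 182, 122 and 187 CPM. The 8 carriers and creatine kinases were all negative with a median of -0.64, among them the ADP/ATP carrier Slc25a5 at 4302 and 767 and 1978, 1032 and 1225 CPM and the outer-membrane channel Vdac3 at 1336 and 588 and 622, 561 and 581 CPM. None of these genes passed the adjusted threshold.

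In the Dzip1 experiment the same lists were mostly positive, and again 0 genes passed. All 13 genes of the tricarboxylic acid cycle were positive with a median of 0.10, as were 16 of 17 of fatty acid oxidation with 0.087, all 8 carriers and creatine kinases with 0.095, 22 of 28 assembly factors with 0.058, 11 of 14 regulators with 0.042 and 6 of 9 other nuclear subunits with 0.07. Sucla2, of succinyl-CoA ligase, was at 157, 167 and 158 CPM in the wild type and 174, 175 and 177 CPM in S14R/+, without overlap (0.12 ± 0.035, unadjusted p = 0.00556, adjusted p = 0.822 by edgeR). Fumarase (Fh1) was at 222, 257 and 227 and 256, 260.4 and 263 CPM, with wild-type replicate 2 among the S14R/+ libraries. Ckmt2, the creatine kinase of striated muscle mitochondria, was at 6.89, 6.15 and 5.94 and 6.91, 8.61 and 8.05 CPM (0.31 ± 0.10), and the phosphate carrier Slc25a3 at 409, 402 and 367 and 436, 418 and 429 CPM (0.12 ± 0.047). Cox10 and Cox15, which make the haem A of complex IV, had log2 fold changes of 0.16 ± 0.054 and 0.11 ± 0.038. Cytochrome c1 (Cyc1) and cytochrome c (Cycs) had 0.12 ± 0.056 and 0.10 ± 0.052. Etfa and Etfdh, which pass electrons from fatty acid oxidation to the chain, had 0.13 ± 0.050 and 0.11 ± 0.042, and the regulators Tfb1m and Gabpa 0.14 ± 0.059 and 0.079 ± 0.035.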

How the data were processed

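RNA of mouse mitral leaflets was measured in 11 libraries, grouped by the genotype in the labels. The submitters' processing notes give the build names GRCm38 and mm10 and the tools HTSeq, cutadapt 1.11, FastQC 0.11.5, DESeq and DESeq2. The sources used here do not give the aligner, the annotation or the strand setting. Every deposited table holds whole-number counts per gene and library, per the file headers and values. The authors also deposited a signal per gene (the mean of scaled counts), log2 fold changes with their errors, a score (the statistic) and a p-value with its adjusted value.

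Genes were tested per table with edgeR 4.0.16 (R 4.3.3) by its quasi-likelihood test after TMM scaling and filterByExpr, at a Benjamini-Hochberg adjusted p of 0.05. CPM are TMM-scaled. Transcript lengths are medians over coding transcripts of the GENCODE annotation of GRCm38. Named genes are the heart variants and partners, the 2 smallest p-values and highest CPM of each complex, the highest and lowest fold changes with a mean count of 50 or more, and the 2 smallest p-values of each other list; 1 gene that this rule names is not reported here. Ndufs1, Ndufv1, Cox5a in the Ift88 experiment, Atp5g1 to Atp5g3, Cox6b2 and genes ranked per kilobase were added after their values were seen. Promoter motifs were first searched over 300 bases with a slightly different set; the window of 250 bases and the final 10 motifs were chosen after those matches were seen. Members and lists were chosen with earlier results of these data known. The alternatives were DESeq2 1.42.0, limma-voom (limma 3.58.1), the deposited values, RLE and upper-quartile scaling, other filters, a threshold of 0.1, each library left out and a length correction. Covariates were the cardiomyocyte list, title prefix (Ift88 experiment only) and sex (Dzip1 experiment only). Sex was inferred from Xist counts. Xist was at 558 CPM in Dzip1 wild-type replicate 3 and 411 CPM in S14R/+ replicate 2, far above the other Dzip1 libraries. In the Ift88 experiment Xist was at 48.8 and 11.5 CPM in wild type and 104, 93.4 and 0 CPM in knockout. The grouping of the deposited Dzip1 values was added after seeing the data. The edgeR fit was tried on simulated counts. There the wild-type libraries shared the same mean levels, unlike the Ift88 wild-type libraries, so that setting was not covered.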

Additional observations from a re-analysis of the deposited data

How the results depend on the processing

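Every alternative kept the count of subunit genes past the threshold at 0 in both experiments except the fit without Ift88 wild-type replicate 1, so this count ran from 0 to 3 with 1 Ift88 library left out and was 0 for each Dzip1 library. With 1 library left out, the median log2 fold change ran from -1.53 to 0.71 (Ift88) and from 0.039 to 0.10 (Dzip1, highest without wild-type replicate 2). With 1 Ift88 library left out, values that crossed 0 ranged from -1.50 to 0.63 for complex I median, -1.73 to 0.91 for complex II median, -1.64 to 0.75 for complex III median, -1.59 to 0.87 for complex IV median, -1.37 to 0.79 for complex V median, -2.05 to 8.18 for Cox6a2, -1.86 to 6.38 for Cox7a1, -1.65 to 13.19 for Cox8b, -1.25 to 0.14 for Cox6a1, -1.59 to 0.87 for Cox7a2, -1.53 to 0.77 for Cox8a, -1.98 to 0.065 for Ndufb4, -1.96 to 0.62 for Ndufb8, -1.74 to 0.69 for Sdhc, -1.72 to 0.83 for Sdhd, -1.61 to 0.41 for Uqcrh, -1.68 to 0.52 for Uqcr11, -1.55 to 0.81 for Uqcrc1, -1.36 to 0.38 for Cox6c, -1.59 to 0.87 for Cox6b1, -1.37 to 0.026 for Atp5l, -1.31 to 1.46 for Atp5b and -0.41 to 0.52 for Atp5sl. With 1 Dzip1 library left out, values that crossed 0 ranged from -0.085 to 0.089 for Cox7a2 and -0.13 to 0.019 for Cox8b. Limma-voom turned to positive values Cox6a2 4.08, Cox7a1 3.21, Cox8b 6.19, Atp5b 0.052 and Atp5sl 0.15. The length correction did so for Cox8b 0.066 and Atp5sl 0.085. With the cardiomyocyte list as a covariate, values turned negative in the Dzip1 experiment: the median of all genes of the set -0.016, complex I median -0.017, complex II median -0.051, complex III median -0.016, complex V median -0.032, Cox6a1 -0.087, Sdhb -0.019, Sdhc -0.041, Sdha -0.062, Uqcrfs1 -0.030, Uqcrc1 -0.027, Uqcrc2 -0.029, Cox5a -0.011 and Atp5b -0.072. The grouping of the deposited Dzip1 values was added after seeing the data. It was fitted as S14R/+ replicates 1 and 3 and wild-type replicate 2 over the others. Negative values were then found for complex IV median -0.0018 and Cox7a2 -0.12. The cause was not tested, and in the Dzip1 experiment the cardiomyocyte covariate cannot be fully told apart from genotype. Per CPM in place of per kilobase, the Cox6a2 share in the Dzip1 libraries was 30.4 to 32.4%. The deposited Dzip1 fold changes were not run as an alternative, since they follow another grouping. No paired analysis was possible because the labels give the groups no shared replicate numbers. The fitted coefficient of variation between libraries, 87.7% in the Ift88 experiment against 7.85% in the other, limits what the Ift88 test can show.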
